A study of Mus musculus with 16 samples.

Results

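The 44 genes described here encode enzymes that work inside the lysosome, proteins of the lysosomal membrane and its proton pump, the transcription factor TFEB, and the retromer complex with its sorting nexins. The list was drawn up around Man2b1, Vps35 and Snx10, which had fallen in the nucleus pulposus (NP) of Sox9 knockout mice, to ask whether the whole module falls with them. Of the 44 genes, 42 were matched to a probe set of the array, each to exactly 1, out of 19505 genes named on 22206 tested probe sets. Ctsd and Glb1 were not analysed here. The NP values of Man2b1, Vps35 and Snx10 chose the module, so they are given as a description, and the tests concern the other 39 genes or arrays of the other tissue.

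Lysosomes are acidic organelles in which hydrolases break down proteins, sugar chains, lipids and sulfated glycosaminoglycans, the polymers that make up much of the disc matrix. The hydrolases reach the lysosome bound to sorting receptors, and retromer, a trimer of VPS35, VPS26 and VPS29, carries such receptors back from endosomes on membrane tubules shaped by sorting nexins. TFEB switches on many lysosomal genes through an E-box called the CLEAR element.

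Expression was measured on 16 arrays from 8 female mice of 3 to 4 months, as log2 signals, and 1 log2 unit is a doubling. Control animals (CTR) were Sox9fl/fl with no Cre named, and conditional knockout animals (cKO) were AcanCreERT2 Sox9fl/fl and received tamoxifen on 2 consecutive days, so that all groups carry the floxed Sox9 alleles and whether controls also got the drug is not given in the labels. From each animal, the gel-like core (NP) and its fibrous outer ring, called annulus fibrosus (AF), were dissected 5 days after the first injection from lumbar and tail discs, pooled over discs, and put on 1 array each, which gave 4 arrays per group from 4 animals per genotype. Cre is driven by Acan, the aggrecan gene, so that cells of the disc that do not express Acan keep Sox9.

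Sox9 separated the genotypes in both tissues: its signal lay between 15.95 and 16.79 in NP CTR and between 9.55 and 10.12 in NP cKO, and between 16.39 and 17.45 in AF CTR and between 11.43 and 12.99 in AF cKO. Median signals per array ran from 6.66 to 6.89, and the negative control probe sets had medians from 6.14 to 6.59. Group means under 6.59 were found for Ctss in 3 groups, Arsa in all 4, and Gusb and Galns in both NP groups, and there a difference may be only a bound. Of 9 NP markers measured, Krt8, Krt18, Krt19, Cd24a and Cdh2 were higher in NP than in AF of the controls and passed the test, whereas Car12 and Foxf1 were lower. Of 10 AF and tendon markers, 9 had lower means in NP of the controls and 8 passed the test as lower. Over all probe sets 9.96% passed as higher and 10.1% as lower in NP. The arrays hold whole tissue, so fewer cells of a type and less RNA per cell cannot be told apart.

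The promoters of the module are shown for the E-box through which TFEB acts and for cores bound by SOX proteins. RefSeq promoter windows of GRCm38.p6, from 250 bases before to 50 bases after a gene's start, were matched to 37 of the 44 genes as 44 windows, and Vps35 is named only. The stretches of Man2b1 (chr8:85083019-85083268, plus strand) and Snx10 (chr6:51523653-51523902, plus strand) before the start hold no CACGTG, the 6-base E-box of the CLEAR element, and capitals in Snx10 mark the only match to a SOX core.

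Man2b1: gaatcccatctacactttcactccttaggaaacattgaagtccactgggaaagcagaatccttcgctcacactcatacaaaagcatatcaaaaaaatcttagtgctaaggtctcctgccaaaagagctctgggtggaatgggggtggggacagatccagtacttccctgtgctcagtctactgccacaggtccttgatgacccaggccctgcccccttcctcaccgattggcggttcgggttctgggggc

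Snx10: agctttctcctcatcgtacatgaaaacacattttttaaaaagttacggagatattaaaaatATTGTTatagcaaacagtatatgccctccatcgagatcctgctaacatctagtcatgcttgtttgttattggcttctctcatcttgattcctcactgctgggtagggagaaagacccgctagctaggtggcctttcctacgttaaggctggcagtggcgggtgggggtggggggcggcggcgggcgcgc

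The 8-base palindrome TCACGTGA was found in 8 windows of 7 genes of the module, Atp6v0d1, Atp6v1a, Ctsa, Ctsd, Gla, Mcoln1 and Vps26a. Only some of these are printed, with the palindrome in capitals. They are Atp6v1a (chr16:44139358-44139417, minus strand), a proton pump subunit, Gla (chrX:134601200-134601255, minus strand), a glycosidase, Mcoln1 (chr8:3500447-3500506, plus strand), a calcium channel, and Vps26a (chr10:62486955-62487014, minus strand), a retromer subunit.

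Atp6v1a: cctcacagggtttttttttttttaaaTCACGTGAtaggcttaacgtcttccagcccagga

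Gla: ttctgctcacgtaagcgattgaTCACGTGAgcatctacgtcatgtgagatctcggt

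Mcoln1: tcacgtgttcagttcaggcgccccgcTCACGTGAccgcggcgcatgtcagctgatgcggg

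Vps26a: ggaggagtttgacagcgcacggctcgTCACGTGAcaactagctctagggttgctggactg

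CACGTG occurred in 15 of the 44 windows (34.1%) against 7.15% of all 32851 windows of this length, and TCACGTGA in 18.2% against 0.974%. The palindrome extended by a G before and a C after was found in 2 windows, both of Vps26a. Among measured genes, Arsa, Atp6v0d1, Atp6v1a, Ctsa, Ctsl, Gaa, Gla, Lamp1, Mcoln1, Sgsh, Snx5 and Vps26a held CACGTG. On both strands, 3 cores bound by SOX proteins were searched: the letters AACAAT, then ACAATG, which can share bases with the former, and lastly the core spelled ACAAAG. At least 1 of them occurred in 13 windows (29.5%) against 33.2% of all windows. These matches are descriptions of letters and not binding sites.

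In the NP, Man2b1, Vps35 and Snx10 were the only members past the threshold, which is how they were chosen. Man2b1 encodes the lysosomal alpha-mannosidase that trims mannose from glycoproteins. The 4 NP CTR arrays read 13.75, 14.20, 14.81 and 14.07 for replicates 1 to 4, and the NP cKO arrays 11.54, 9.35, 12.67 and 11.50. The groups did not overlap, and cKO replicate 2 lay far under the other cKO arrays. The means were 14.21 ± 0.45 and 11.26 ± 1.39 (SD, n = 4), a log2 difference of -2.95 or 7.71-fold.

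Vps35 is the backbone of retromer, on which the other subunits assemble. The NP CTR arrays read 14.56, 15.25, 15.44 and 15.14, and the NP cKO arrays 13.27, 12.57, 14.07 and 13.29, always in order of replicate. Every cKO array lay under every CTR array, with means of 15.10 ± 0.38 and 13.30 ± 0.61 (SD, n = 4), a difference of -1.80. Snx10, a small sorting nexin of endosomes known for its part in osteoclasts and in the assembly of the proton pump, had 13.75, 14.18, 14.92 and 13.99 in NP CTR and 12.22, 11.94, 12.97 and 12.36 in NP cKO. These groups did not overlap either, and the difference of their means was -1.84.

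The values that chose these 3 genes are given here as a description and support nothing. At the threshold, an adjusted p under 0.05 over all probe sets in limma with Benjamini-Hochberg adjustment, Vps35 and Snx10 lay just inside with 0.0399 each, and the nearest members outside were Scarb2 at 0.874 and Vps29 at 0.946. How many of the 3 would have been chosen depended on single arrays: none without NP CTR replicate 2, 3 or 4 or NP cKO replicate 1, 1 without NP cKO replicate 2 or 4, and 2 without NP CTR replicate 1.

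**Figure D1:**
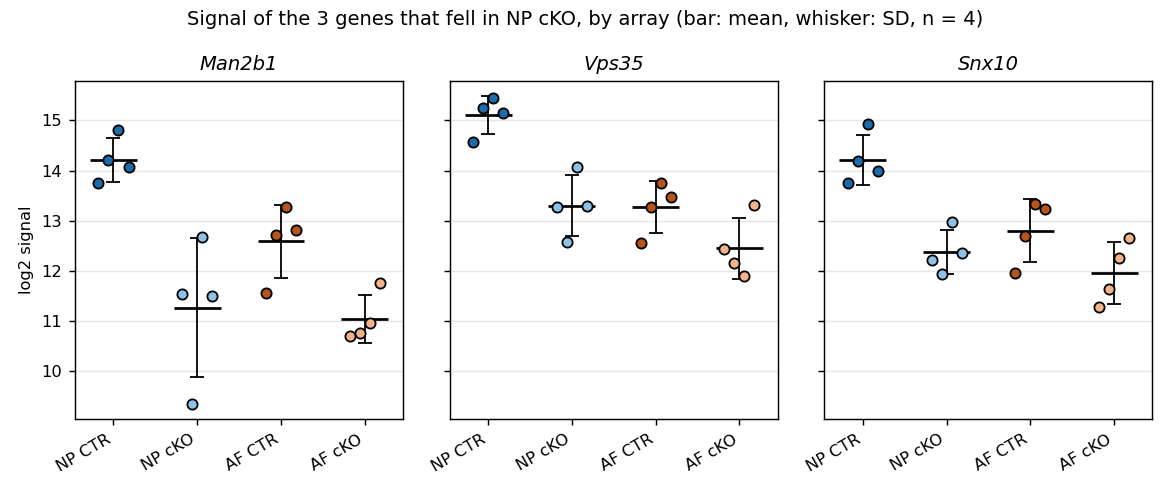
Log2 signal of Man2b1, Vps35 and Snx10 on each array (points, replicates 1 to 4 from left to right) in the 4 groups, with the group mean (bar) and SD (whisker, n = 4). The NP groups do not overlap, and the AF groups do.

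The rest of the module was spread around 0 in the NP. Of the 39 other genes, 18 were higher and 21 lower in cKO, as were 50% of all probe sets each, with a median log2 change of -0.0045, and none passed the test (limma, adjusted p), where 0.122% of all probe sets were called. At an unadjusted p under 0.05, which 2.81% of probe sets reached as lower and 1.78% as higher, 2 of them were lower, Scarb2 and Vps29, and none was higher. For 33 of the 39 the 95% interval of the change lay within 1 log2 unit on either side, so that for these genes a halving or doubling lies outside the interval.

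Scarb2 encodes LIMP-2, a lysosomal membrane protein that also carries beta-glucocerebrosidase to the lysosome. The NP CTR arrays read 11.62, 12.05, 12.46 and 12.22, and the NP cKO arrays 11.26, 11.59, 11.43 and 11.60. It was the only one of the 39 whose NP groups did not overlap, with every cKO array lower, as was seen for 1.82% of all probe sets. The change was -0.62 (SE 0.23, adjusted p = 0.874, limma), and in the AF it was -0.50 (SE 0.23, adjusted p = 0.464, limma).

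All 4 genes of the retromer trimer had lower means in NP cKO, but the size differed widely among them. Beside Vps35, Vps29, the phosphodiesterase-fold subunit, was at -0.61 (SE 0.25), and the arrestin-like subunits Vps26a and Vps26b were at -0.37 (SE 0.26) and -0.09 (SE 0.20). Vps29 had 10.26, 10.07, 11.13 and 10.61 in NP CTR and 9.48, 10.18, 10.12 and 9.83 in NP cKO. Its groups overlapped, since cKO replicates 2 and 3 lay above the lowest control.

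The sorting nexins that build the retromer tubules gave no such pattern. Snx1, Snx2, Snx5 and Snx6 lay between -0.0027 and 0.14, and Snx27, which links retromer to cargo with PDZ-binding tails, was at -0.08 (SE 0.22). Snx6 had the same mean of 13.51 in both NP groups. Snx10, which is not part of these tubule coats, was the exception among the 6 nexins.

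**Figure D2:**
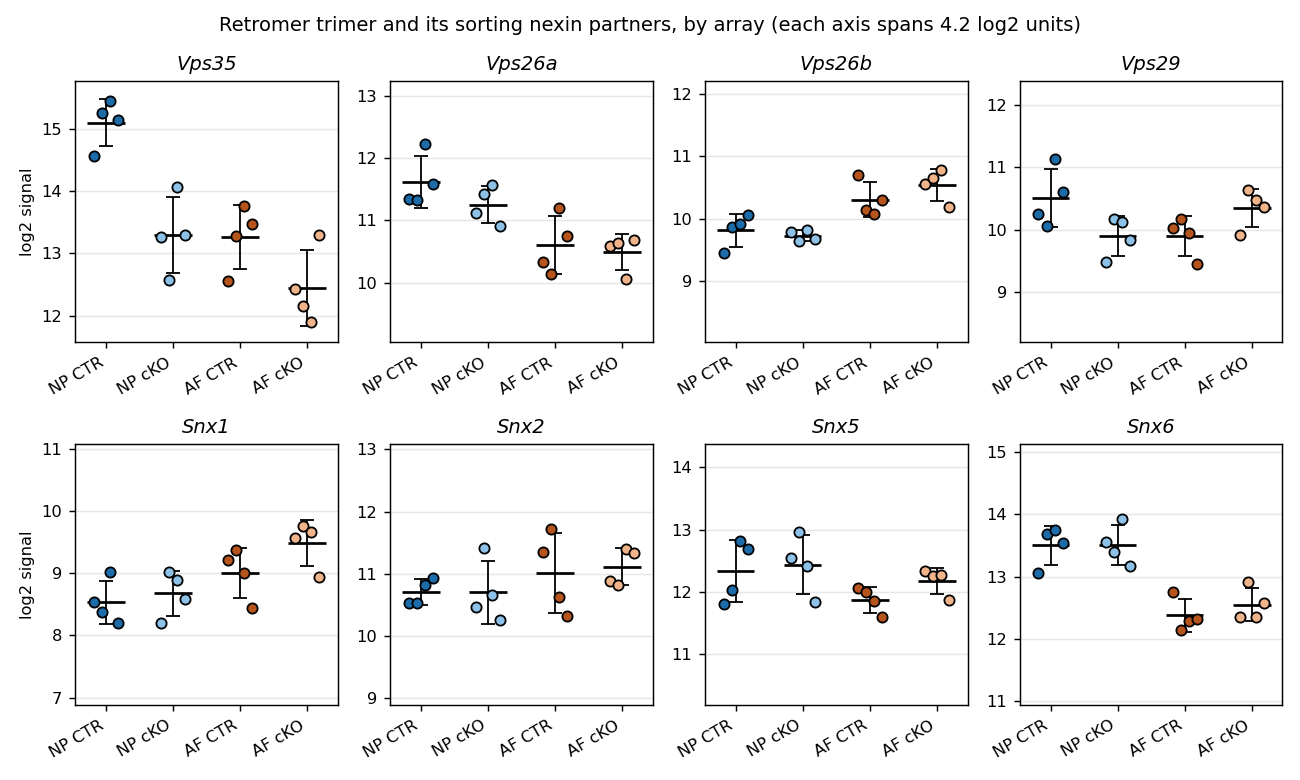
Log2 signal of the 4 retromer trimer genes and of Snx1, Snx2, Snx5 and Snx6 on each array, with the group mean and SD (n = 4); every panel spans the same number of log2 units. Vps35 is lower in NP cKO than in NP CTR on every array, and Vps26a and Snx6 are higher in NP than in AF in both genotypes.

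Among the enzymes, 5 of 6 proteases had higher means in NP cKO, with a median of 0.21, and none passed the test. Ctsb, the cathepsin B gene, had the largest value above 0 of the module at 0.44 (SE 0.26), from 14.96 to 16.01 in CTR and from 15.55 to 16.29 in cKO. These groups overlapped. Beside Man2b1, the glycosidases ran from -0.20 for Gla, the alpha-galactosidase, to 0.34 for Gaa, the acid alpha-glucosidase that breaks down glycogen.

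The sulfatases ran from -0.50 for Arsb, which removes sulfate from dermatan and chondroitin sulfate, to 0.11 for Sgsh, the heparan sulfamidase. Lipid handling genes ran from -0.44 for Ppt1, a palmitoyl thioesterase, to 0.23 for Psap, the precursor of the saposins. Of 5 membrane proteins 4 were lower, among them the calcium channel gene Mcoln1 at -0.41 (SE 0.23), and the proton pump subunits Atp6v0d1 and Atp6v1a lay at -0.16 and 0.17. Tfeb itself was at -0.15 (SE 0.24).

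**Figure D3:**
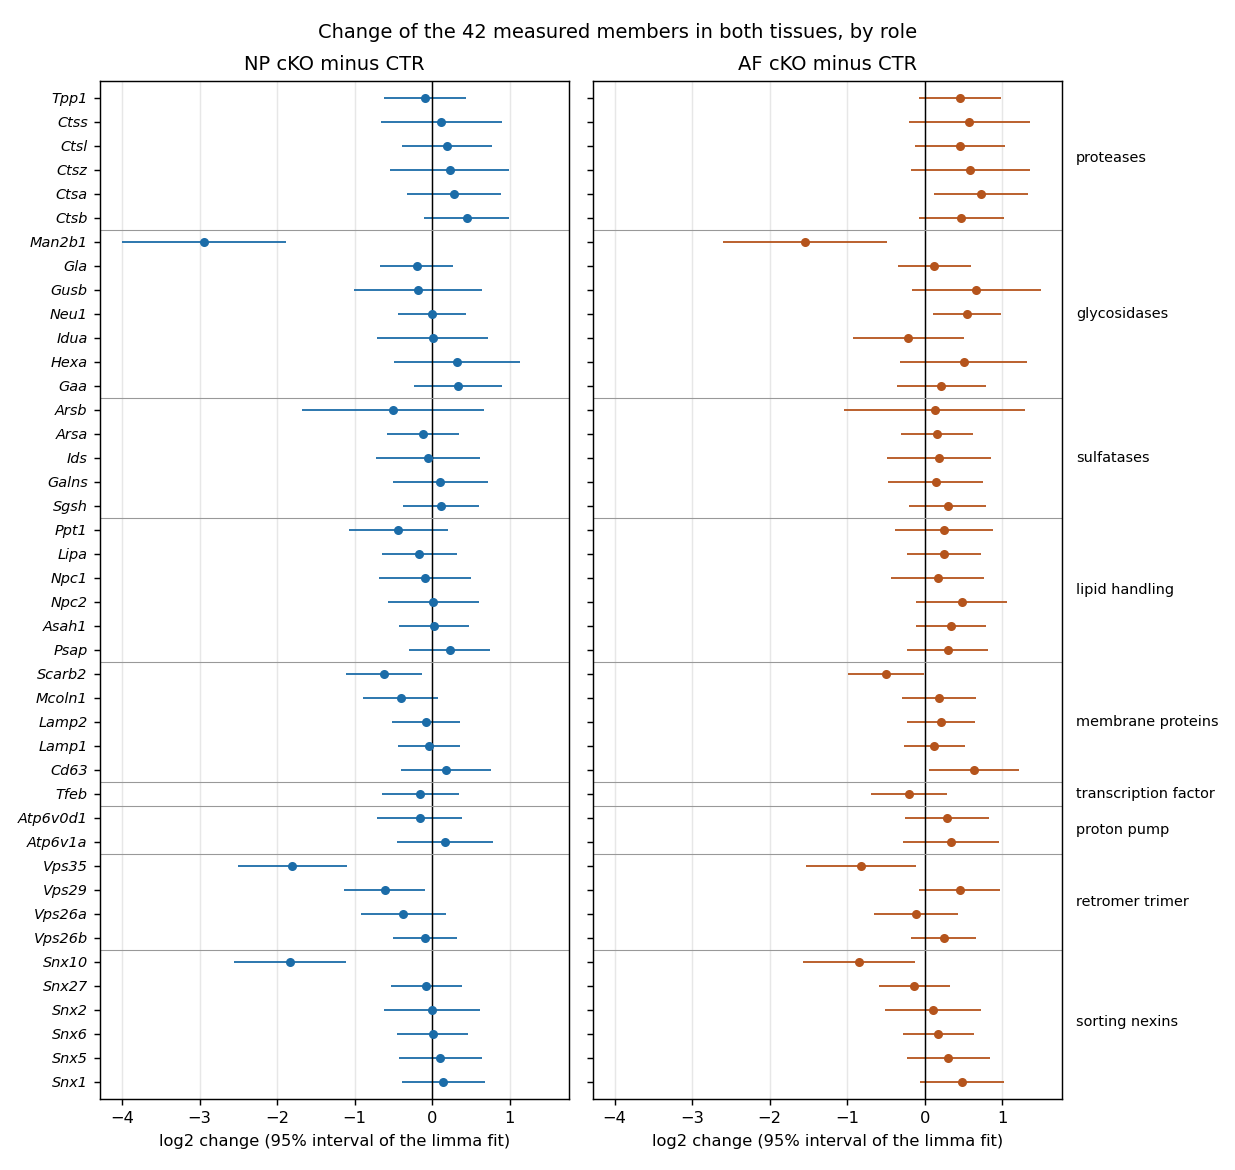
Log2 change from CTR to cKO of the 42 measured genes in NP (left) and AF (right), with the 95% interval of the limma fit, grouped by role (lines). Man2b1, Vps35 and Snx10 lie apart in NP, and 34 of the 42 genes lie above 0 in AF.

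No gene of the same pathways outside the module was called in the NP. Of 108 such genes, 41 were higher and 67 lower in cKO, with a median of -0.09. The smallest p among them belonged to Ankrd50, which works with retromer in endosomal recycling, at -0.92 (SE 0.23, adjusted p = 0.246, limma) and Vps33a, of the complexes that tether lysosomes, at -0.70 (SE 0.24, adjusted p = 0.709, limma). Of 28 genes of retromer partners and other endosomal sorting 20 were lower, and of 24 other hydrolases 14 were lower. For probe sets whose mean lay above the negative controls, 46.4% were higher and the median was -0.02.

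In the AF, whose arrays the rule did not use, the same 3 genes had lower means in cKO but did not pass a test. Man2b1 had 11.56, 12.71, 13.27 and 12.81 in AF CTR and 10.70, 10.76, 10.96 and 11.75 in AF cKO, a change of -1.55 (SE 0.50, adjusted p = 0.292, limma). The groups overlapped only because CTR replicate 1 was low and cKO replicate 4 high. Vps35 had 12.55, 13.28, 13.76 and 13.48 in CTR and 12.43, 12.16, 11.90 and 13.30 in cKO, a change of -0.82 (SE 0.34, adjusted p = 0.411, limma).

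Snx10 had 11.96, 12.69, 13.33 and 13.23 in CTR and 11.28, 11.63, 12.25 and 12.65 in cKO, a change of -0.85 (SE 0.35, adjusted p = 0.402, limma). For both genes cKO replicate 4 lay above at least 1 control, as did cKO replicate 3 for Snx10, and CTR replicate 1 was the lowest control. Exact two-sided permutation tests of 4 against 4 arrays gave 0.0571 for Man2b1, 0.0857 for Vps35 and 0.114 for Snx10, each 0.114 after adjustment over the 3 tests, and the smallest p this design allows is 0.0286.

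Most other members leaned the opposite way in the AF. Of the 39 others 34 had higher means in cKO, with a median of 0.25, where 46.4% of all probe sets were higher. Among the probe sets whose mean lay above the negative controls, 57.0% were higher and the median was 0.06. None of the 42 was called, where 0.0991% of all probe sets were. At an unadjusted p under 0.05, reached by 4.94% of probe sets as higher and 5.69% as lower, 3 members were higher, Ctsa, Neu1 and Cd63, and 4 lower, Man2b1, Vps35, Snx10 and Scarb2.

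Ctsa, the cathepsin A gene whose product protects neuraminidase, had 11.75, 12.03, 11.56 and 11.03 in AF CTR and 12.01, 12.62, 12.73 and 11.92 in AF cKO, a change of 0.73 (SE 0.29, adjusted p = 0.386, limma). Neu1, that neuraminidase, had 7.10, 7.77, 7.56 and 7.19 in CTR and 8.15, 7.84, 7.96 and 7.85 in cKO, a change of 0.55 (SE 0.21, adjusted p = 0.373, limma). Neu1 was the only member whose AF groups did not overlap, as 1.79% of probe sets did in this direction. Cd63, a tetraspanin of late endosomes, was at 0.63 (SE 0.28), and its groups overlapped.

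By role, all 6 proteases, all 5 sulfatases, all 6 lipid handling genes and both proton pump subunits had higher means in AF cKO, with medians of 0.52, 0.16, 0.27 and 0.31. Tfeb was at -0.20 (SE 0.24). The retromer trimer was split, with Vps29 at 0.45 (SE 0.25) and Vps26b higher, and Vps35 and Vps26a lower. Of the 108 other pathway genes 72 were higher, with a median of 0.15 and none called. Of 15 other proton pump subunits 13 were higher, among them Atp6v1b2 at 0.82 (SE 0.28, adjusted p = 0.323, limma).

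Several measures moved with this lean. Markers of several other cells were higher in AF cKO, none of them called: 10 of 10 neutrophil markers with a median change of 3.10, 6 of 6 erythroid ones with 1.11, 10 of 10 of skeletal muscle with 0.93 and 9 of 9 of endothelium with 0.56. The rise was smaller for osteoclast markers, 9 of 10 higher with a median of 0.28, and for macrophage markers, 7 of 10 higher with 0.11. Of the osteoclast markers, Acp5, Ctsk and Atp6v0d2 are also among the other pathway genes counted above. Cartilage markers lay the other way, 8 of 10 lower with a median of -1.60, and Acan fell by 2.003 (SE 0.34, adjusted p = 0.0218, limma). As AcanCreERT2 is named for cKO animals only, an effect of that allele on Acan and one of Sox9 loss cannot be told apart. The mean log2 signal of the neutrophil markers ranged from 6.31 to 11.34 in AF CTR and from 9.35 to 12.94 in AF cKO, and that of the osteoclast markers from 5.82 to 8.96 and from 6.13 to 9.99. Their part in the result was not tested.

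The lean also sat on certain arrays. Over the members, the median difference from the CTR mean of the tissue was 0.40 and 0.46 on AF cKO replicates 2 and 3, and 0.01 and 0.02 on replicates 1 and 4. Replicates 2 and 3 had the lowest negative control medians of all arrays, 6.14 and 6.18. With the negative control median of each array as a covariate, a setting chosen after seeing the data, the members' median change in the AF was -0.01. The negative control medians lay between 6.35 and 6.57 in AF CTR and between 6.14 and 6.43 in AF cKO. Such a covariate can therefore also take up part of a difference between the genotypes. NP CTR replicate 3 was the other array with high members, 39 of 42 above the CTR mean with a median of 0.37, and its negative control median was 6.42. Other arrays had lower negative control medians than that without such high members. AF CTR replicates 1 and 2, at 6.38 and 6.35, had member medians of 0.07 and 0.17. AF cKO replicate 1, at 6.35, had 0.01, and NP cKO replicate 2, at 6.37, had 0.05.

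**Figure D4:**
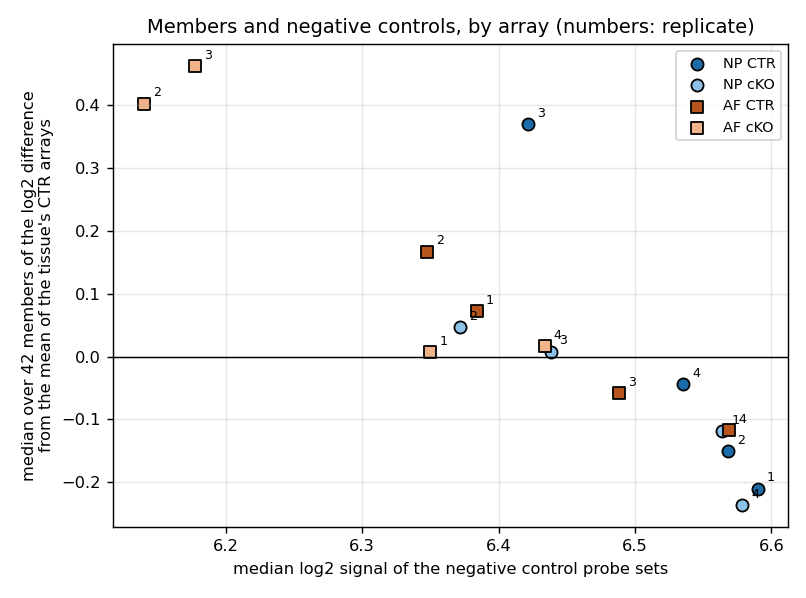
Median over the 42 members of the log2 difference from the mean of the CTR arrays of the same tissue (vertical axis) against the median log2 signal of the negative control probe sets (horizontal axis), 1 point per array. AF cKO replicates 2 and 3 and NP CTR replicate 3 have the highest member medians.

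The changes in the 2 tissues were set against each other in the same fit. Of the 39 members that did not choose the module, 35 had an NP change below the AF change, with a median difference of -0.28. Over all probe sets 48.4% were below 0, as were 6985 of the 11753 with a mean above the negative controls. No probe set was called (0% of 22206, limma, adjusted p), and 3.17% were lower at an unadjusted p under 0.05. Among those above the negative controls the median was -0.10. The median of all 42 members, which include the 3 chosen on NP arrays, was -0.30, and with the negative control covariate it was -0.08.

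Vps29 had the smallest p of the module in this comparison, at -1.06 (SE 0.35, unadjusted p = 0.00765, adjusted p = 0.732, limma). The AF CTR arrays read 10.03, 10.17, 9.94 and 9.45, and the AF cKO arrays 9.91, 10.63, 10.47 and 10.37, so that all NP cKO arrays lay under the NP CTR mean of 10.51 and all AF cKO arrays above the AF CTR mean of 9.90. For Man2b1, Vps35 and Snx10 the NP change differed from the AF change by -1.40, -0.98 and -0.99, and these values rest on the NP arrays that chose them.

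More probe sets were called between the tissues than between the genotypes. In control animals 20.1% of all probe sets were called between NP and AF, 9.96% higher and 10.1% lower in NP. Of the 39 members other than the 3 that chose the module, 4 were higher in NP, Snx6, Vps26a, Tpp1 and Npc1, and 2 were lower, Arsb and Galns. The share of members called was therefore near that of all probe sets.

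Among the retromer genes and their partners, Vps26a and Snx6 were higher in NP. Vps26a had 11.35, 11.34, 12.22 and 11.59 in NP CTR and 10.33, 10.15, 11.20 and 10.75 in AF CTR, with every NP array above every AF array, as for 11.3% of all probe sets, and a difference of 1.02 (SE 0.26, adjusted p = 0.00935, limma). Snx6 had 13.05, 13.68, 13.75 and 13.54 in NP and 12.76, 12.15, 12.29 and 12.32 in AF, again without overlap, a difference of 1.13 (SE 0.22, adjusted p = 0.00126, limma). Vps35, Snx10 and Man2b1 were higher in NP CTR by 1.83, 1.41 and 1.62, given without a test since these NP arrays chose them.

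Vps26b, the second VPS26 gene, had the opposite order to Vps26a: it was at -0.49 for NP against AF in CTR, where it did not pass (adjusted p = 0.0914, limma). In cKO animals Vps26b was at -0.82 (SE 0.20, adjusted p = 0.00572, limma), with 9.79, 9.63, 9.82 and 9.67 in NP and 10.57, 10.66, 10.78 and 10.18 in AF. Vps26a, at 0.76 (SE 0.26, adjusted p = 0.0382, limma), and Snx6, at 0.96 (SE 0.22, adjusted p = 0.00412, limma), were higher in NP there too. Snx1, a partner of Snx5 and Snx6, was at -0.81 (SE 0.26, adjusted p = 0.0272, limma) in cKO animals.

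Enzymes that degrade glycosaminoglycans lay mostly on the lower side in NP. Of the 7 measured, Gusb, Idua, Hexa, Ids, Sgsh, Arsb and Galns, 6 had lower means in NP CTR than in AF CTR, where 47.2% of all probe sets did. Arsb had 8.74, 8.26, 9.15 and 8.60 in NP CTR and 11.88, 10.44, 9.75 and 10.05 in AF CTR, a difference of -1.84 (SE 0.56, adjusted p = 0.0249, limma) without overlap, as 11.2% of probe sets had in this direction. Galns, which removes sulfate from keratan and chondroitin sulfate, was at -1.13 (SE 0.29, adjusted p = 0.0101, limma), with its NP means under the negative control limit.

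Tpp1, a peptidase of the lysosome, was higher in NP CTR by 0.88 (SE 0.25, adjusted p = 0.0187, limma), and Npc1, the membrane cholesterol exporter, by 0.86 (SE 0.29, adjusted p = 0.0385, limma). Both had NP arrays all above the AF arrays. These calls were the less firm ones: Tpp1 was lost after a second quantile normalization and without NP CTR replicate 2 or 3 or AF CTR replicate 1, Npc1 with array weights, with only the 8 arrays compared, and without NP CTR replicate 1 or 3 or AF CTR replicate 1 or 4, and Arsb without NP CTR replicate 1, 2 or 4 or AF CTR replicate 1. Mcoln1, at 0.65, had an adjusted p of 0.0523 in limma and 0.0472 with the animal as a random block.

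In cKO animals, where 13.3% of probe sets were higher and 12.6% lower in NP, 10 members were lower in NP and 2 higher. The 10 were Ctsz, Gla, Gusb, Arsa, Arsb, Galns, Npc2, Cd63, Vps26b and Snx1, with differences from -0.68 for Gla to -2.47 for Arsb. Gusb, the beta-glucuronidase, had 5.98, 6.77, 5.96 and 6.76 in NP cKO, at the level of the negative controls, and 7.68, 8.07, 9.42 and 7.22 in AF cKO, a difference of -1.73 (SE 0.40, adjusted p = 0.00403, limma). Npc2, the soluble partner of NPC1, was at -1.07 (SE 0.28) and so opposite in sign to Npc1 at 0.61 (SE 0.29), which did not pass.

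That 10 members passed in cKO and 2 in CTR animals is not a difference shown between genotypes, since no member passed the test of the difference itself. With the negative control covariate none of the 10 passed, and the probe sets called fell from 5754 to 1720. The negative control medians lay between 6.37 and 6.58 in NP cKO and between 6.14 and 6.43 in AF cKO. This covariate can therefore also take up part of a difference between the tissues. Without AF cKO replicate 3 the number of lower members was 6, and without NP cKO replicate 1 it was also 6. Of the 10, Arsb, Galns, Gusb, Npc2, Cd63 and Vps26b were called in every other alternative that tested them, where the filter on dim probe sets left out Galns and Arsa, and Ctsz, Gla, Snx1 and Arsa were lost in several more. Vps26a was lost without NP cKO replicate 1, 2 or 3 or AF cKO replicate 1, 2 or 3, among others, and Snx6 was called in every alternative.

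**Figure D5:**
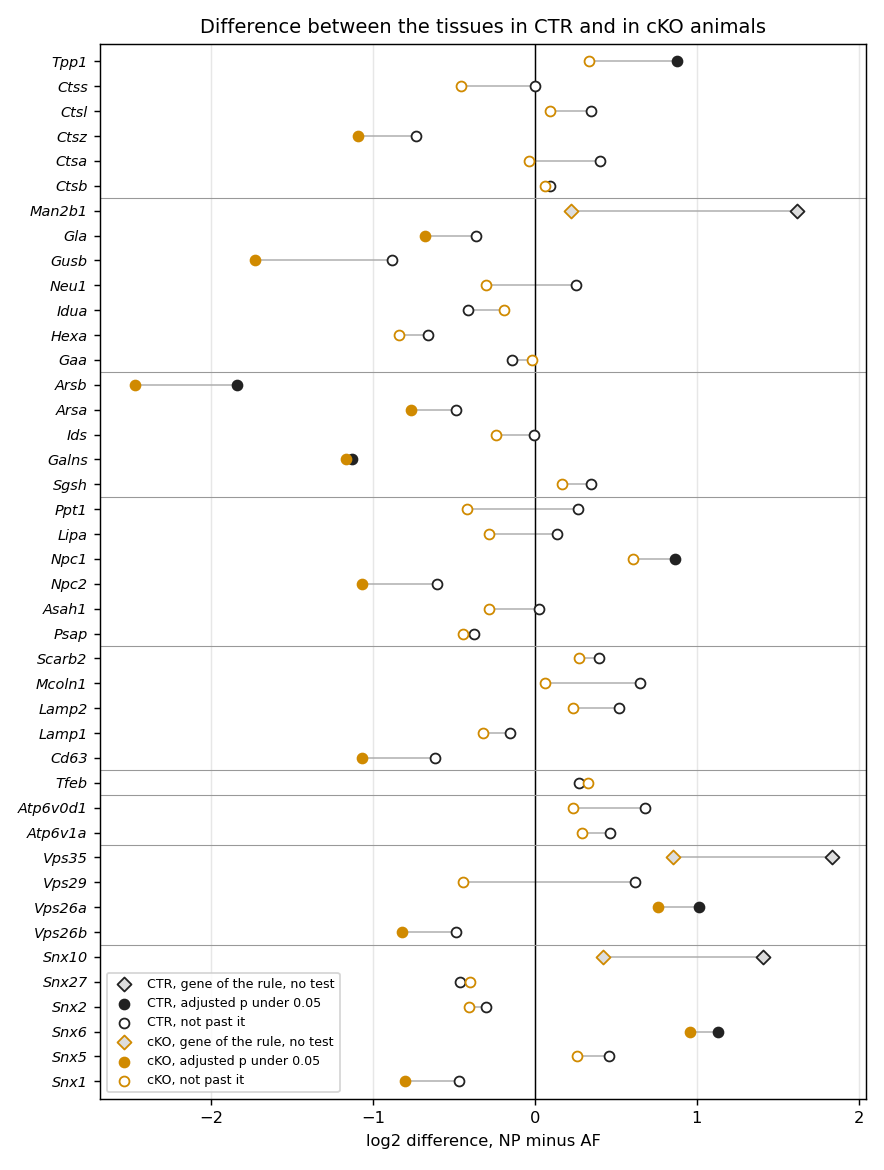
Log2 difference between NP and AF in CTR and in cKO animals for the 42 measured genes, grouped by role; filled circles passed an adjusted p of 0.05, open circles did not, and diamonds are the 3 genes that chose the module. Vps26a and Snx6 lie above 0 and Arsb and Galns below 0 in both genotypes.

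Arsb, Gusb, Hexa and Ctsz varied widely among the AF arrays. AF cKO replicate 3 held the highest value of all 16 arrays for each of them, 12.97, 9.42, 13.35 and 12.12, and AF CTR replicate 1 the highest of the controls, 11.88, 8.43, 12.23 and 10.79. The same arrays had the highest mean signal of the osteoclast markers in their groups, 9.99 and 8.96, and of the neutrophil markers, 12.94 and 11.34. They were also highest for the markers of cartilage, 12.82 and 15.30, macrophages, 7.15 and 7.32, endothelium, 8.26 and 8.13, and erythroid cells, 8.61 and 7.09. For the markers of AF and tendon, NP and skeletal muscle this did not hold on both arrays. In NP the osteoclast markers averaged between 5.31 and 5.80. Their list shares Acp5, Ctsk and Atp6v0d2 with the other pathway genes, so it is not separate from the lysosomal lists. With both AF arrays left out, 1 member was higher and 6 were lower in NP of cKO animals, and their part in the result was otherwise not tested.

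Of the 108 other pathway genes, 59 had higher and 49 lower means in NP CTR than in AF CTR, and 11 passed as higher and 14 as lower, where 9.96% and 10.1% of all probe sets did. The lists differed in their tallies. Of 24 further hydrolases 19 were lower and 8 passed as lower: Acp5 at -5.96, Ctsh at -2.23, Man2b2 at -1.79, Manba at -1.63, Fuca1 at -1.60, Scpep1 at -1.17, Arsk at -0.97 and Plbd2 at -0.90. Man2b2 and Manba act, like Man2b1, on mannose sugars, and Acp5 is also a defining osteoclast marker. The NP means of Acp5 (5.14) and Manba (4.97) lay under the negative control limit, as Manba did also in AF cKO, so that both differences may be only bounds. In cKO animals 22 of the 24 were lower in NP and 12 passed, where 12.6% of all probe sets did. Of 14 other membrane proteins 9 were lower in NP CTR. Higher in NP CTR were 20 of 28 retromer partners and other sorting genes and 13 of 17 genes of the TFEB family and mTORC1. So were 7 of 10 genes of enzyme delivery and 9 of 15 other pump subunits, where 52.8% of all probe sets were higher. Called as higher were 3 sorting genes, 3 of the TFEB family and mTORC1, 1 of enzyme delivery and 4 pump subunits. Called as lower were 2 sorting genes, 1 pump subunit and 3 of the other membrane proteins. Among those called higher were M6pr, a receptor that delivers hydrolases, at 0.82 (SE 0.21), and the TFEB relative Mitf at 1.06 (SE 0.27). Rragc and Rragd, GTPases that hold mTORC1 on lysosomes, were called higher at 0.85 and 0.87, with AF means of Rragd under the negative control limit. Ankrd50 was also higher in NP CTR, by 0.84 (SE 0.23, adjusted p = 0.0131, limma).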

How the data were processed

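RNA of each sample was hybridised to 1-colour Affymetrix arrays. The deposited values are log2 signals, normalised by sst-RMA per the labels, in Transcriptome Analysis Console per the submitters' processing notes, with the version not given in the sources used here. Of 28846 probe sets 6640 controls were left out, and 22206 were tested, of which 19572 carry 1 gene symbol. Each member has a single probe set, so no choice among probe sets was needed. All 16 arrays were fitted as 4 group means in limma 3.58.1 (R 4.3.3), with Benjamini-Hochberg adjustment over all probe sets and a threshold of 0.05. Array number limits the precision. The p-values rest on the spread among arrays within the 4 groups, with the NP and AF arrays of an animal treated as independent. With the animal as a random block, the correlation of its arrays was 0.035. Scripts were tested on simulated data.

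Named genes are the 3 of the rule, members called, the largest changes, the smallest p per role and list, and retromer partners. Members and lists were chosen with earlier results of these data known. NP and AF arrays with the same title code are of 1 animal. Deviations of such pairs from their group means had r of -0.293 to 0.348, above 0.1 in 3 of 8. CTR and cKO animals share only a number. Alternatives were other scalings, a dim filter, moderation settings, blocks, the labels' thresholds (a fold of 1.75) and leaving out arrays.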

Additional observations from a re-analysis of the deposited data

Results flagged for a closer look

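Each member was checked in each group for an array far from the other 3, by the gap to its neighbour as a share of the range of the group, with a limit of 0.829. Of 168 groups 11 passed it, where chance flags about 1 in 20, or 5%. In AF CTR, Ctsl was low at 10.58 and Sgsh at 6.22 on replicate 4, Ctsz was low at 9.68 on replicate 3, Ids was high at 12.35 on replicate 2, and on replicate 1 Arsa was high at 6.32 and Scarb2 low at 10.98. In AF cKO, Arsb was high at 12.97 and Vps26a low at 10.06 on replicate 3, and Lamp1 was low at 15.50 on replicate 1. In NP CTR, Gla was high at 8.08 on replicate 3 and Lamp1 high at 15.65 on replicate 4.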

How the results depend on the processing

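In the NP, 27 probe sets were called, 262 with the labels' thresholds and 10 to 19 without single arrays. The lower members, all of them genes that chose the module, numbered 1 after a second quantile normalization and 0 to 3 without single arrays, as a description, with medians from -0.09 to 0.02. In the AF, 22 probe sets were called: 37 after quantile normalization, 8 with only the arrays compared, 774 with the labels' thresholds (3 lower members), 112 without AF CTR 1 and AF cKO 3, 34 without AF cKO 2 and 4, and 12 to 142 without single arrays (142 without AF CTR 1, 112 without AF cKO 4), where the members' median was 0.17 to 0.34. With the negative control covariate it was -0.014. For the difference of the changes, 1 probe set was called after quantile normalization, without either pair of arrays, and with the covariate (median -0.078), 977 with the labels' thresholds (1 lower member), and 0 to 3 without single arrays (median -0.40 to -0.18).

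For NP against AF in CTR (4462 probe sets), 5 members were lower after quantile normalization, and with the dim filter 1 was lower among 2764 probe sets. Without AF CTR 1 and AF cKO 3, 4 were higher. Without single arrays there were 3552 to 4160 probe sets, 4 to 8 members higher (4 without NP CTR 3 or AF CTR 1), 1 to 2 lower, and medians of 0.06 to 0.21. In cKO (5754 probe sets), 4 members were higher after quantile normalization, and the dim filter called 3119 probe sets. Without AF CTR 1 and AF cKO 3, 1 was higher and 6 lower, and without AF cKO 2 and 4, 1 was higher among 3800 probe sets. With the covariate 1720 probe sets and 0 lower members were called, with a median of 0.093, and Ctsa turned from -0.04 to 0.77. Without single arrays there were 4074 to 5621 probe sets, 1 to 3 members higher, 6 to 11 lower, and medians of -0.29 to -0.16. The causes were not tested.

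With the replicate block, the adjusted p of Tpp1 between the tissues in CTR was 0.0252, and the block changed no call among the 39 members that did not choose the module. As every member has 1 probe set, the mean over probe sets of a gene gave no other value. Signals near the negative controls limit what can be said of Ctss, Arsa, Gusb and Galns, and the dim filter left out Arsa and Galns.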
